A study of Homo sapiens with 6 samples.

Results

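The enzymes of glycolysis and of the citrate cycle were examined in 786-O cells with YB1 knockdown and in vector cells. Members were taken from the rows of the deposited table whose KEGG annotation names the glycolysis and gluconeogenesis pathway or the citrate cycle pathway and does not name oxidative phosphorylation. This gave 87 of the 20030 genes listed, after a gene that is not reported here was left out. The glycolysis pathway held 68 of them and the citrate cycle pathway 27, with 8 genes in both. The subunits of succinate dehydrogenase carry the oxidative phosphorylation annotation and are therefore not among the members. 786-O is an established cell line of human clear cell renal cell carcinoma, which lacks functional VHL. Knockdown cells carried a lentiviral short hairpin RNA against YB1 (shYB1), and control cells carried a vector with a scrambled hairpin. Both were at passages 16 to 18 and were harvested 7 days after puromycin selection, with 3 libraries of total RNA each. The text of the series speaks of several hairpins against YB1, whereas the labels give a single shYB1 group, and the question asked was which transcripts differ when YB1 is lowered.

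Glycolysis splits glucose into pyruvate in the cytosol, and lactate dehydrogenase turns pyruvate into lactate. In mitochondria the pyruvate dehydrogenase complex makes acetyl-CoA from pyruvate, and the citrate cycle oxidises it and hands electrons to the respiratory chain. Clear cell renal cell carcinoma is known for hypoxia-inducible factors that stay active without VHL, for high glycolytic enzyme levels and for the loss of gluconeogenic enzymes such as fructose-bisphosphatase. YB1, encoded by YBX1, is a cold-shock domain protein that binds DNA and RNA and was named for the Y box, a promoter element that holds CCAAT in the reverse direction.

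Values are FPKM, fragments scaled by transcript length and by the mapped fragments of the library. The number of fragments behind each value is not known from the table. Library totals ran from 282736 to 295887 FPKM. Levels are relative to the whole library, so more RNA of a gene per cell and a larger share of cells with it cannot be told apart.

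The labels were checked on YBX1 first. Vector replicates 1 to 3 had 366.5, 373 and 378 FPKM, whereas shYB1 replicates 1 to 3 had 167, 166 and 173 FPKM. The groups did not overlap, and the exact permutation test (two-sided) gave its smallest possible value for groups of 3, p = 0.1. The log2 fold change on the log2(FPKM + 0.1) scale was −1.14 (95% confidence interval −1.21 to −1.07, limma adjusted p = 1.53e-08 with Benjamini-Hochberg adjustment). The gene spans bases 42682427 to 42702349 of chromosome 1 (GRCh38), and 32.1% of the 50-base words of its transcripts also occur in other genes, most often in the pseudogene YBX1P1. The cell line label was checked on 19 genes of kidney epithelium and clear cell carcinoma. Of these, 17 had a mean of at least 1 FPKM, and the most abundant was VIM at 1419 FPKM. LRP2, the endocytic receptor of the proximal tubule, was listed at 0 in every library. Of 4 endothelial genes and 6 genes of muscle or liver, 0 reached a mean of 1 FPKM. Of 5 fibroblast genes, 1 did so, LUM at 2.18 FPKM. The 6 leukocyte genes summed to 26.8, 28.3 and 26.1 FPKM in vector replicates and to 22.7, 23.4 and 24.3 FPKM in shYB1 replicates, mostly from CD68 at a mean of 23.7 FPKM. Of these genes 2 reached a mean of 1 FPKM, CD68 and LYZ, and CD3E was listed at 0 in all libraries. CD68 was lower in shYB1 cells (log2 fold change −0.16, limma adjusted p = 0.00969) and passed under all 15 alternatives. LYZ averaged 1.15 FPKM and ran from 0.0704 to 2.87 FPKM within the vector libraries.

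Across both pathways the changes were small and ran in both directions. Of the 68 glycolysis genes, 40 averaged 1 FPKM or more across the 6 libraries and were tested. At a limma adjusted p under 0.05, 3 of the 40 were lower and 7 were higher in shYB1 cells. These are 7.5% and 17.5% of the genes tested, where 6.93% of all 10439 genes tested were lower and 18.7% were higher. Of the 7, LDHC passed the filter only through the shYB1 libraries and is set aside, which leaves 6. The citrate cycle had 24 of 27 genes tested, of which 1 was lower and 6 were higher, or 4.17% and 25% of them. Both pathways thus stood near the background. The median log2 fold change was 0.04 for glycolysis and 0.03 for the citrate cycle, beside 0.06 for all genes tested. No member reached a fold change of 2, and at an unadjusted p under 0.05 with that fold change only 0.22% of all genes tested passed, or 23 genes. Groups did not overlap for 26 of the 58 members tested, 18 above, LDHC included, and 8 below. Of all genes tested, 30.1% lay wholly above and 12.5% wholly below.

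The balance of directions depended on how libraries were scaled. With median-of-ratios rescaling, which sets the typical gene to no change, 12% of all genes tested were lower and 11.4% were higher. Glycolysis then had 4 lower and 4 higher genes with a median of −0.01, and the citrate cycle 5 lower and 3 higher genes with a median of −0.02. Quantile normalization, under which 1184 of all genes were lower and 1267 higher, instead gave glycolysis 4 lower and 8 higher genes with a median of 0.04, and the citrate cycle 4 lower and 3 higher genes with a median of −0.03. Of the 15 members past the threshold with values as deposited, LDHC included, 9 also passed after rescaling. Leaving out shYB1 replicate 1 left 4 higher genes in glycolysis, and leaving out vector replicate 1 or shYB1 replicate 2 left 3 higher genes in the citrate cycle. A variance prior without trend ended the calls of PFKL, MINPP1, GAPDH, ENO2, IDH3B and MDH1, and testing without the filter on low values ended those of MINPP1, GAPDH, IDH3B and MDH1. In contrast 7 genes, ACO1, PGM1, PFKP, TPI1, PCK2, PDHA1 and FH, passed in the same direction under every one of the 15 alternatives tried. No such count over all genes tested is given here, so these 7 are not set against a background.

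**Figure D1:**
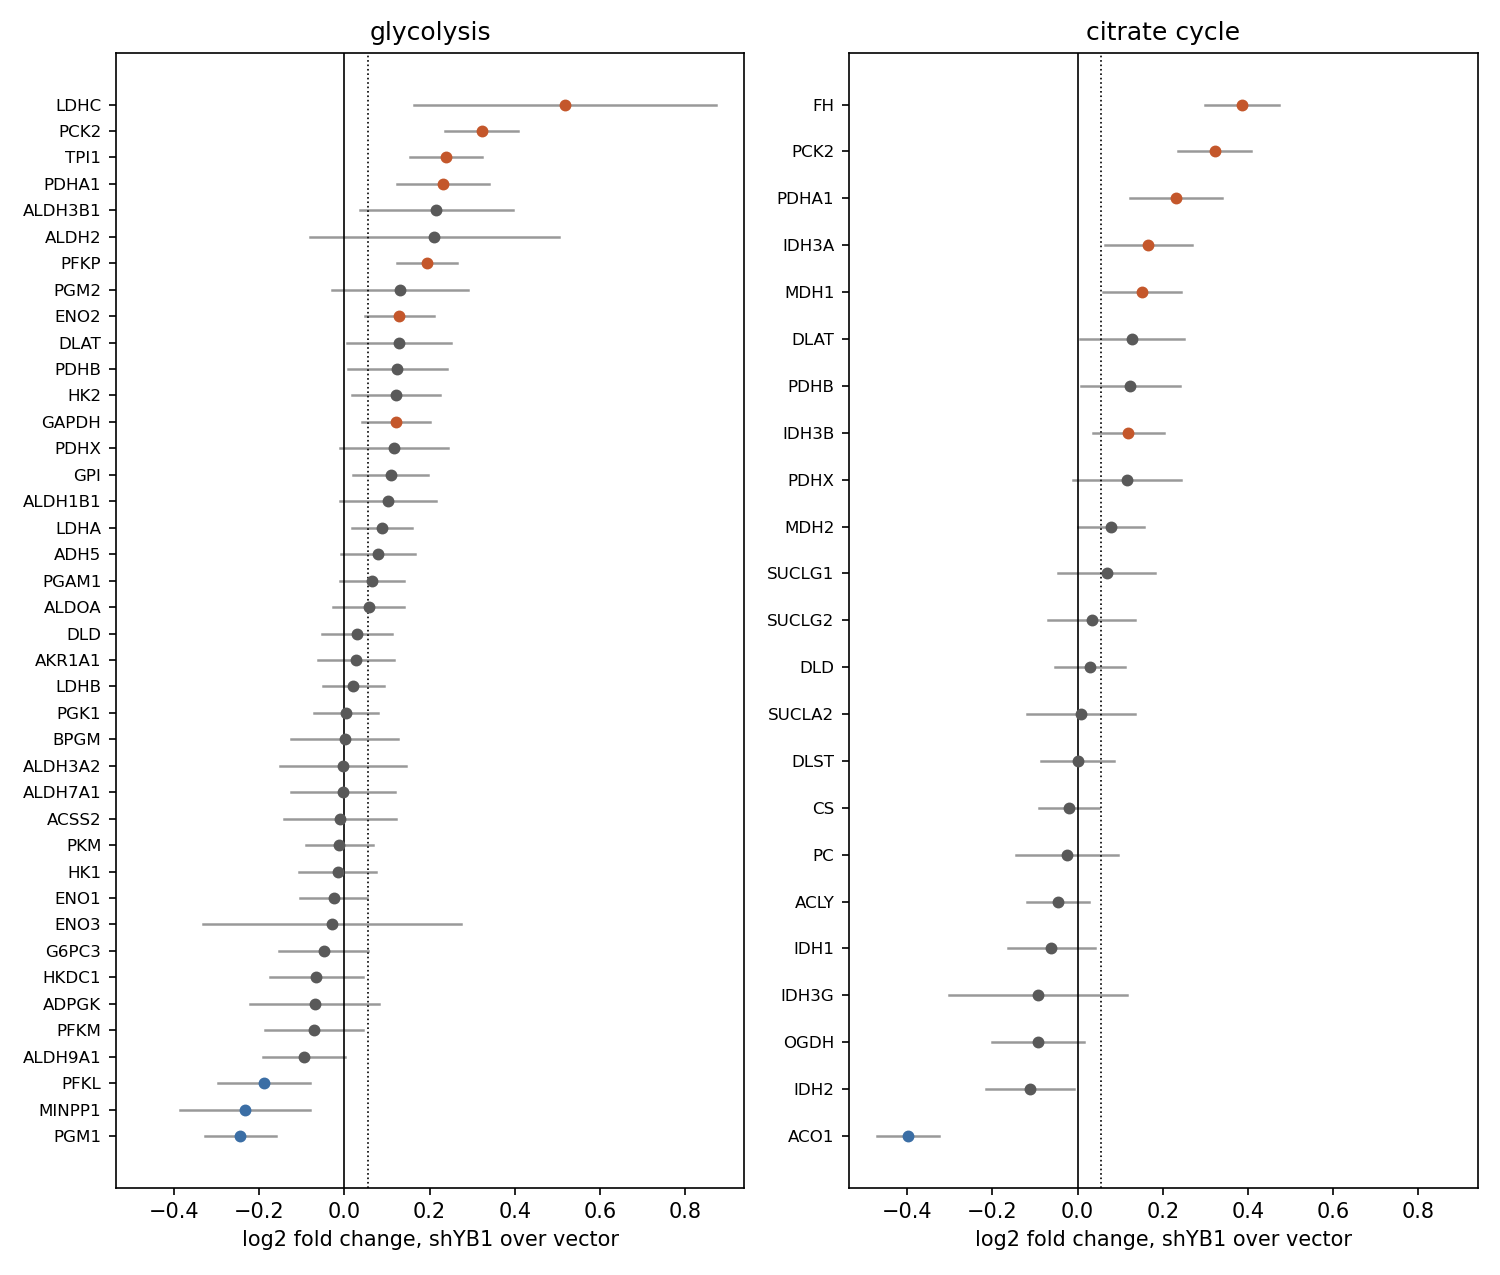
Log2 fold change of shYB1 over vector on the log2(FPKM + 0.1) scale (points) with 95% confidence intervals (lines) for glycolysis and citrate cycle genes tested and reported here; genes in both pathways appear in both panels. Orange and blue points passed an adjusted p under 0.05 (limma) as higher and lower, grey points did not, and the dotted line marks the median of all genes tested, 0.06. LDHC is drawn but set aside, since only the shYB1 libraries brought it past the filter.

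Promoter sequences are shown for 4 of these genes, because YB1 was named for a promoter element and because 2 of them fell and 2 rose. They are the bases before the start site from the RefSeq promoter table (GRCh38.p14), without stretches that lie in annotated exons. Capitals mark CCAAT or ATTGG, the core of the Y box on either strand, and ACGTG or GCGTG with their reverse complements CACGT and CACGC, the core of the hypoxia response element. Matches on the 2 strands can overlap, as ACGTG and CACGT do. PGM1 is given for chr1:63593161-63593275 on the plus strand, ACO1 for chr9:32384393-32384602 on the plus strand, FH for chr1:241519762-241520005 on the minus strand and PDHA1 for chrX:19343677-19343892 on the plus strand.
ACO1: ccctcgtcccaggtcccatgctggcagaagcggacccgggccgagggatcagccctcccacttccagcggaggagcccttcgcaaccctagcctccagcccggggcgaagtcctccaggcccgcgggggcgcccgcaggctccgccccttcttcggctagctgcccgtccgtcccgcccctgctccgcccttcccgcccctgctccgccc
PGM1: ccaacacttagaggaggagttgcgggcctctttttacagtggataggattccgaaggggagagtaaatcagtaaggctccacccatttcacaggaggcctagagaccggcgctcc
FH: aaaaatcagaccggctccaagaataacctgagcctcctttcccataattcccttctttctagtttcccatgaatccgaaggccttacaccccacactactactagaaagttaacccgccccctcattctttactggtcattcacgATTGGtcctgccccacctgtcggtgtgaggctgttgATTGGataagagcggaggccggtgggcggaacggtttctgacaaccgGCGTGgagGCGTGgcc
PDHA1: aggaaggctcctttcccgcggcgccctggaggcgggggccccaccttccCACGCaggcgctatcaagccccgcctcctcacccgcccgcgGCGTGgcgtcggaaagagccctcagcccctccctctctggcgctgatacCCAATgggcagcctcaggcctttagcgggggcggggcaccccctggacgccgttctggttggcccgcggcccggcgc
The ACO1 and PGM1 stretches hold 0 matches to either core. The FH stretch holds 2 matches to the Y box core and 2 to the hypoxia core, and the PDHA1 stretch 1 and 2. In the full 250 bases before the start, the Y box core occurred in 32 of the 78 members with an entry (41%), in 4 of the 15 members past the threshold (26.7%) and in 32% of all 35116 promoters of the table. The hypoxia core occurred in 45 of the 78 (57.7%), in 9 of the 15 (60%) and in 43.2% of all promoters. Each member counts with a single entry, the one nearest its annotated gene start. The 35116 promoters are instead every entry of the table, without regard to whether the gene was tested. These sets are unlike, so the shares do not show enrichment. The 15 include LDHC, whose test is set aside and which holds 0 matches to the Y box core and 3 to the hypoxia core. The full 250 bases of ACO1 hold 1 match to the hypoxia core and those of PDHA1 hold 3, since the stretches shown are shorter. PFKP, TPI1 and PCK2 also rose under every alternative, and their sequences are not printed. In the full 250 bases PFKP and TPI1 hold 0 matches to either core. PCK2 holds 1 match to the Y box core and 0 to the hypoxia core. A match only describes the letters in this window.

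The glycolytic steps themselves, from hexokinase to pyruvate kinase, had 27 member genes, of which 17 were tested, 1 was lower, 4 were higher and 12 passed in neither direction, beside 6.93% lower and 18.7% higher among all genes tested. Glycolytic mRNA was abundant. GAPDH, glyceraldehyde-3-phosphate dehydrogenase, ranked 7 among all 20030 genes by mean FPKM, ENO1, the main enolase, ranked 34, and PKM, pyruvate kinase, ranked 59. The genes of these steps together with lactate dehydrogenase made up 2.06% ± 0.0231 (SD, n = 3) of the FPKM total in vector cells and 2.16% ± 0.0191 (SD, n = 3) in shYB1 cells. Abundant genes weigh most in this share. GAPDH averaged 2322 FPKM in vector and 2524 FPKM in shYB1 cells, and ENO1 1022 and 1003 FPKM. The median log2 fold change of the step genes tested was 0.00.

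**Figure D2:**
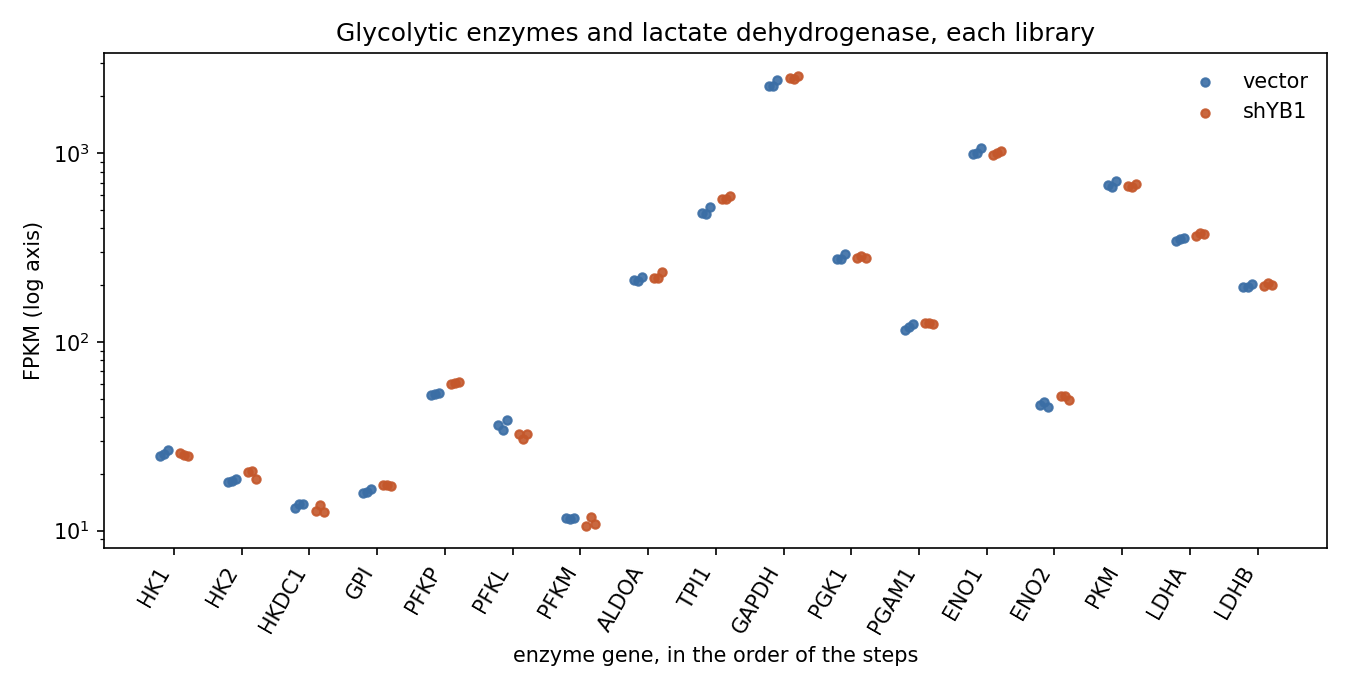
FPKM (log axis) of selected glycolytic enzyme and lactate dehydrogenase genes in each of the 3 vector (blue) and 3 shYB1 (orange) libraries, in the order of the steps. Levels of the genes drawn span from about 11 FPKM for PFKM to 2583 FPKM in the highest library for GAPDH, and the groups lie close together for most genes.

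Hexokinase traps glucose in the cell as glucose 6-phosphate. HK1 had 24.8, 25.5 and 26.8 FPKM in vector and 25.9, 25.3 and 25 FPKM in shYB1 libraries, with overlapping groups. HK2, the inducible form, had 18.2, 18.2 and 18.8 against 20.5, 20.8 and 18.9 FPKM. Its groups did not overlap, but it did not pass the test (log2 fold change 0.12, limma adjusted p = 0.0786). It did pass without shYB1 replicate 3 (log2 fold change 0.16). HKDC1 had a log2 fold change of −0.07 and ADPGK, which uses ADP as phosphate donor, also −0.07, and neither passed. The share of HK2 in the summed FPKM of HK1, HK2 and HKDC1 was 31.9% ± 0.397 in vector and 34.3% ± 0.678 in shYB1 cells (SD, n = 3). HK3 stayed under 0.5 FPKM in every library. GPI, which turns glucose 6-phosphate into fructose 6-phosphate, had 15.8, 16.0 and 16.5 against 17.4, 17.4 and 17.3 FPKM and did not pass (limma adjusted p = 0.0702).

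Phosphofructokinase, the committed step of glycolysis, changed in the isoenzyme make-up of its mRNA. Protein was not measured here. PFKP, the platelet form, had 52.3, 52.7 and 53.6 FPKM in vector and 59.8, 60.3 and 61.4 FPKM in shYB1 libraries, so every shYB1 library lay above every vector library. Its log2 fold change was 0.19 (95% confidence interval 0.12 to 0.26, limma adjusted p = 0.00184). PFKL, the liver form, had 36.2, 34.1 and 38.7 against 32.4, 30.7 and 32.4 FPKM, and every shYB1 library lay below every vector library. Its log2 fold change was −0.19 (95% confidence interval −0.30 to −0.08, limma adjusted p = 0.018), and it did not pass without shYB1 replicate 2 (−0.16, adjusted p = 0.068, over a range of 0.0102 to 0.068 with each library left out). PFKM, the muscle form, had 11.7, 11.5 and 11.7 against 10.6, 11.8 and 10.8 FPKM and did not pass. The sum of the 3 was 101 ± 2.93 FPKM in vector and 103 ± 0.995 FPKM in shYB1 cells (SD, n = 3). PFKP made up 52.5% ± 1.07 of it in vector and 58.5% ± 0.297 in shYB1 cells, and PFKL 36.0% ± 1.25 and 30.8% ± 0.852 (SD, n = 3). A scaling factor per library leaves these shares as they are. PFKP lies on chromosome 10 of GRCh38 from 3066333 to 3137712, and PFKL on chromosome 21 from 44300051 to 44327376.

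**Figure D3:**
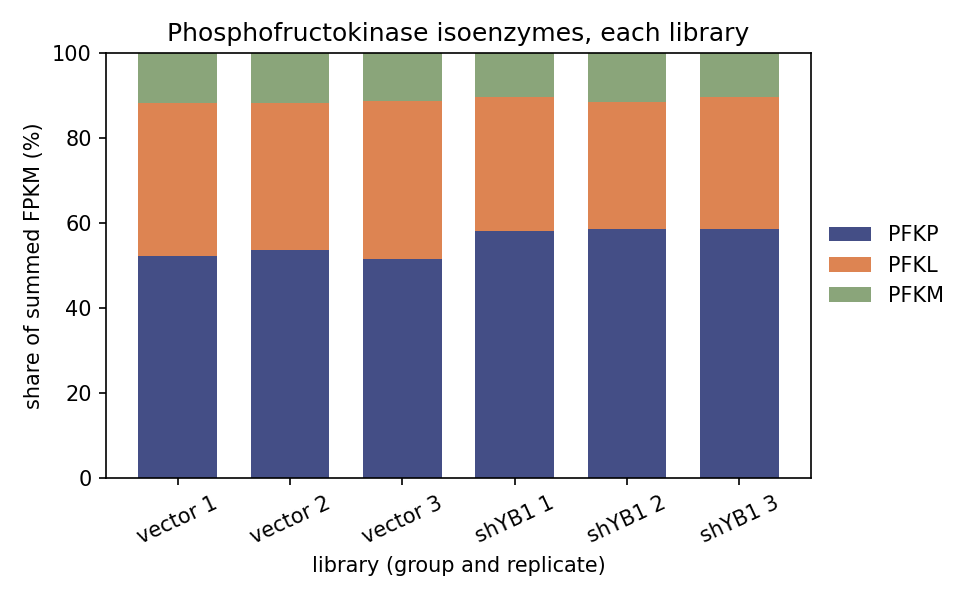
Share (%) of PFKP, PFKL and PFKM in their summed FPKM in each library. The PFKP share lies between 51.6% and 53.6% in the vector libraries and between 58.2% and 58.7% in the shYB1 libraries.

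The lower part of the pathway was led by triose-phosphate isomerase. TPI1, which interconverts the triose phosphates that aldolase makes, had 482, 476 and 519 FPKM in vector and 573, 573 and 593 FPKM in shYB1 libraries. The gap between the groups exceeded the spread within each, with a log2 fold change of 0.24 (95% confidence interval 0.15 to 0.32, limma adjusted p = 0.00173). TPI1 lies on chromosome 12 of GRCh38 from 6867119 to 6870948, and 13.6% of its 50-base words also occur in other genes, most often in the pseudogene TPI1P1. GAPDH had 2264, 2267 and 2436 against 2509, 2481 and 2583 FPKM, a log2 fold change of 0.12 (limma adjusted p = 0.0332). It did not pass after median-of-ratios rescaling or when any library other than vector replicate 3 was left out (adjusted p = 0.0724 to 0.127). GAPDH did pass at a common total (limma adjusted p = 0.00085), after quantile normalization (adjusted p = 0.0265) and without vector replicate 3 (adjusted p = 0.00127). ENO2, the neuronal enolase, had 46.5, 47.9 and 45.3 against 51.5, 52.0 and 49.4 FPKM, a log2 fold change of 0.13 (limma adjusted p = 0.0272). It too was lost after median-of-ratios rescaling, and also after quantile normalization and without vector replicate 1 or 3 or shYB1 replicate 1 or 2 (adjusted p = 0.0622 to 0.0994).

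The other steps showed little difference. ALDOA, the aldolase of these cells, had a log2 fold change of 0.06, PGK1, phosphoglycerate kinase, 0.00, and PGAM1, phosphoglycerate mutase, 0.06. PGAM1 lay wholly above in shYB1 cells and passed after quantile normalization (log2 fold change 0.098, limma adjusted p = 0.0212). ENO1 had 992, 1008 and 1066 FPKM in vector and 979.7, 1004 and 1027 FPKM in shYB1 libraries, a log2 fold change of −0.03 with a 95% confidence interval of −0.10 to 0.05. PKM had 675, 659 and 710.4 against 670.5, 667 and 689.9 FPKM, and −0.01 with an interval of −0.09 to 0.07. ENO3, the muscle enolase, averaged 1.68 ± 0.329 and 1.63 ± 0.137 FPKM (SD, n = 3). Fragments of ALDOA and PGAM1 are uncertain, since 58.9% and 43.1% of their 50-base words occur in other genes. Forms of other tissues were near 0, and ALDOC, GAPDHS, PGAM2, PGK2, ENO4 and PKLR stayed under 0.5 FPKM in every library.

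Lactate dehydrogenase is built from LDHA and LDHB subunits in most tissues. LDHA had 341, 351 and 356 FPKM in vector and 362, 378 and 374 FPKM in shYB1 libraries. The groups did not overlap, and the gene did not pass (log2 fold change 0.09, limma adjusted p = 0.0647). LDHA passed with the replicate number as a block, after rescaling to a common total or quantile normalization, and without vector replicate 3 (log2 fold change 0.10). LDHB had 196, 196 and 204 against 198, 206 and 201 FPKM, with 44.3% of its 50-base words in other genes. LDHC, the testis form, sat at the filter. It had 0.921, 0.621 and 0.936 against 1.13, 1.10 and 1.42 FPKM and reached a mean of 1 FPKM only through the shYB1 libraries, so it had to differ to be tested, and its test is not used here.

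Side routes into and out of glycolysis held 2 lower genes and 1 higher gene among 7 tested, where 6.93% of all genes tested were lower and 18.7% higher (12% and 11.4% after median-of-ratios rescaling). PGM1 interconverts glucose 1-phosphate and glucose 6-phosphate and so joins glycogen to glycolysis. It had 41.4, 40.4 and 42.9 FPKM in vector and 35.7, 35.3 and 34.2 FPKM in shYB1 libraries, wholly below. Its log2 fold change was −0.24 (95% confidence interval −0.33 to −0.16, limma adjusted p = 0.00133). MINPP1, a phosphatase that also removes a phosphate from 2,3-bisphosphoglycerate, had 7.62, 7.64 and 8.65 against 6.26, 7.06 and 6.96 FPKM. It fell by 0.23 on the log2 scale (limma adjusted p = 0.0312) and did not pass without vector replicate 3 (adjusted p = 0.0931) or shYB1 replicate 1 (adjusted p = 0.108), nor without the filter or without a trend in the prior. PCK2, the mitochondrial phosphoenolpyruvate carboxykinase, had 19.0, 19.2 and 19.8 against 24.2, 23.8 and 24.6 FPKM. It was wholly above, with a log2 fold change of 0.32 (95% confidence interval 0.24 to 0.41, limma adjusted p = 0.000307). Of the other gluconeogenic enzymes, FBP1, G6PC and G6PC2 were listed at 0 in every library, and FBP2 and PCK1 stayed under 0.5 FPKM. PCK1 had 0.0137, 0 and 0 against 0.0449, 0.1005 and 0.0456 FPKM, and passed as higher in the fit without the filter, which alone included it. PC, pyruvate carboxylase, had a mean of 8.30 FPKM and a log2 fold change of −0.02. G6PC3, the widely expressed glucose-6-phosphatase, had a mean of 42.4 FPKM and a log2 fold change of −0.05, and neither passed.

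Enzymes of alcohol, aldehyde and acetate oxidation make up 18 members of the glycolysis pathway. Of these 9 were tested, and 0 passed in either direction by limma, with 1 higher and 0 lower at an unadjusted p under 0.05 (ALDH3B1). Among all genes tested 18.7% were higher and 6.93% lower, or 2948 and 1125 of 10439 without adjustment. ALDH3B1 passed with the replicate block and without vector replicate 3 or shYB1 replicate 2, and in 0 of the other 12 alternatives. Also short of the threshold in most alternatives were ALDH2, in 14 of 15, and ALDH9A1, in 13 of 15, and each passed in the rest. The most abundant of them, AKR1A1, which reduces aldehydes, had 48.9, 51.2 and 50.4 FPKM in vector and 50.1, 53.8 and 49.6 FPKM in shYB1 libraries. ACSS2, which makes acetyl-CoA from acetate, had a log2 fold change of −0.01. In all, 29 of the 87 members were not tested. Of these, 27 stayed under 0.5 FPKM in every library and 11 were listed at 0 throughout, and the exceptions were ACSS1, with the highest mean at 0.638 FPKM, and PGAM4, which shares 50.7% of its 50-base words with other genes and reached 0.609 FPKM in vector replicate 2.

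Pyruvate enters the citrate cycle through the pyruvate dehydrogenase complex, whose genes count in both pathways. All 5 tested subunits had positive log2 fold changes, from 0.03 to 0.23, and 1 passed. Of all 10439 genes tested, 6694 were above 0 as well, and 18.7% passed as higher. With median-of-ratios rescaling DLD turned to −0.03. PDHA1, the catalytic alpha subunit, had 19.3, 21.3 and 20.9 FPKM in vector and 23.1, 24.8 and 24.3 FPKM in shYB1 libraries. Every shYB1 library lay above every vector library, with a log2 fold change of 0.23 (95% confidence interval 0.12 to 0.34, limma adjusted p = 0.00705). PDHA1 lies on chromosome X of GRCh38 from 19343893 to 19361705, and genes on the opposite strand cover 21.3% of its exonic bases. PDHB, the beta subunit, had a log2 fold change of 0.12 (limma adjusted p = 0.106), DLAT, the acetyltransferase, 0.13 (adjusted p = 0.111) and PDHX, which tethers DLD, 0.12 (adjusted p = 0.162). DLD, the dehydrogenase shared with the oxoglutarate complex, had 26.2, 26.0 and 25.8 against 26.3, 27.3 and 26.0 FPKM.

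The 7 steps of the citrate cycle counted here had 17 genes, of which 16 were tested, 1 was lower and 4 were higher, beside 6.93% and 18.7% of all genes tested. ACO1 showed the largest fall of any member tested. It encodes cytosolic aconitase, which loses its iron-sulfur cluster when iron is scarce and then binds mRNAs as iron regulatory protein. ACO1 had 40.3, 39.7 and 40.2 FPKM in vector and 30.3, 30.5 and 30.3 FPKM in shYB1 libraries, so the groups differed by far more than their spread. The log2 fold change was −0.40 (95% confidence interval −0.47 to −0.32, limma adjusted p = 3.09e-05), a level 24.1% lower. ACO1 lies on chromosome 9 of GRCh38 from 32384603 to 32454769.

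FH, fumarase, which hydrates fumarate to malate and whose inherited loss causes a renal cancer syndrome, rose. It had 22.5, 22.8 and 22.6 FPKM in vector and 28.5, 29.9 and 30.5 FPKM in shYB1 libraries, with no overlap. The log2 fold change was 0.39 (95% confidence interval 0.30 to 0.47, limma adjusted p = 0.00011), a level 30.7% higher. FH occupies bases 241497603 to 241519761 of chromosome 1 (GRCh38, minus strand), and 5.89% of its 50-base words occur in other genes, most often in the pseudogene FHP1.

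Weaker rises were found in the NAD-dependent isocitrate dehydrogenase and in malate dehydrogenase. IDH3A, its catalytic subunit, had 9.51, 9.83 and 9.86 FPKM in vector and 10.8, 10.8 and 11.2 FPKM in shYB1 libraries (log2 fold change 0.17, limma adjusted p = 0.0238). Genes on the opposite strand cover 38.9% of its exonic bases. IDH3B had 24.2, 24.2 and 25.2 against 26.5, 27.3 and 26.2 FPKM (log2 fold change 0.12, limma adjusted p = 0.0411), while IDH3G, with a log2 fold change of −0.09, did not pass. MDH1, the cytosolic malate dehydrogenase, had 53.0, 54.9 and 53.5 against 61.7, 61.5 and 56.3 FPKM (log2 fold change 0.15, limma adjusted p = 0.0232). All 3 calls were lost after median-of-ratios rescaling and also after quantile normalization. IDH3A was also lost without vector replicate 1 or shYB1 replicate 2 or 3 (adjusted p = 0.057 to 0.0792), and MDH1 without vector replicate 1 or shYB1 replicate 1 or 2 (adjusted p = 0.0742 to 0.0892). IDH3B was lost when any library other than vector replicate 3 was left out (adjusted p = 0.0608 to 0.137).

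**Figure D4:**
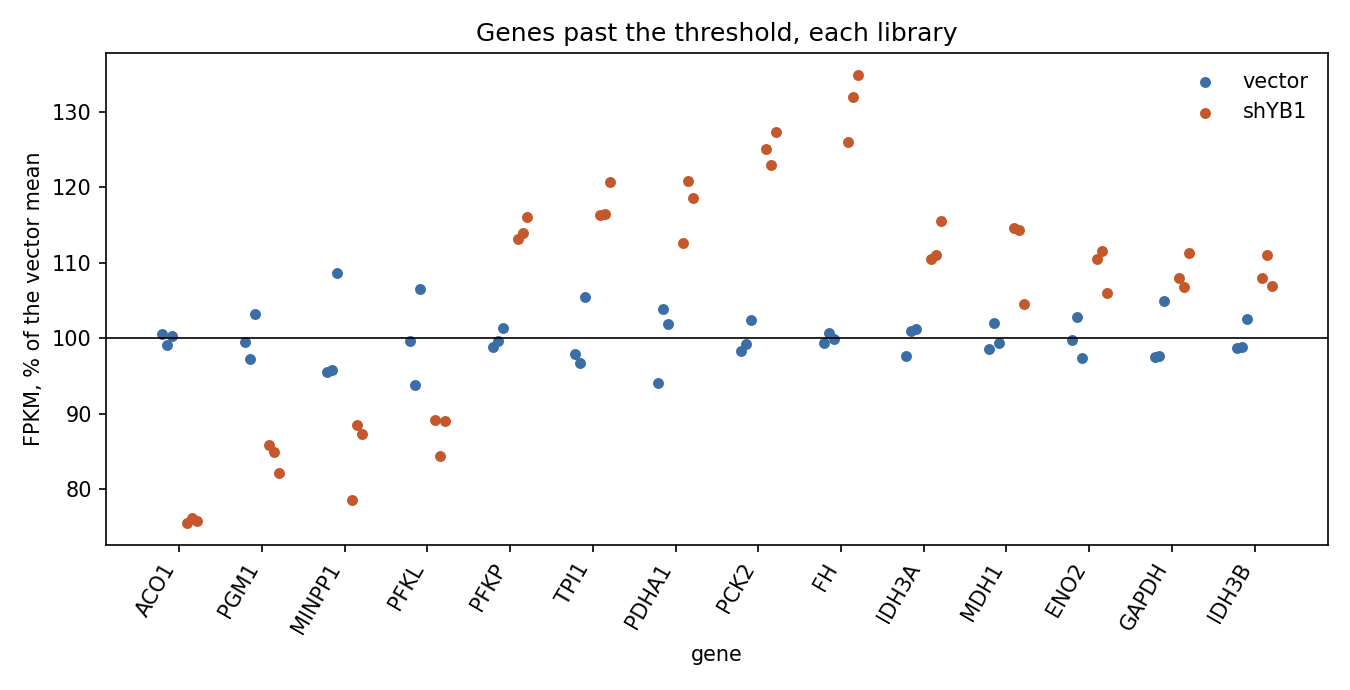
FPKM of each library as a percentage of the vector mean, for 14 of the 15 members past an adjusted p under 0.05 (limma); LDHC, at the filter, is left out. Vector libraries are blue and shYB1 libraries orange, and the groups are widely separated for ACO1 and FH and close for ENO2, GAPDH and IDH3B.

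The remaining cycle enzymes did not pass with values as deposited. CS, citrate synthase, had 42.5, 43.0 and 43.1 FPKM in vector and 42.2, 42.2 and 42.4 FPKM in shYB1 libraries. IDH1 and IDH2, which use NADP in the cytosol and in mitochondria, had log2 fold changes of −0.06 and −0.11. OGDH, the first enzyme of the oxoglutarate complex, had −0.09 and its partner DLST 0.00. SUCLG1, SUCLG2 and SUCLA2, the subunits of succinate-CoA ligase, had 0.07, 0.03 and 0.01. MDH2, the mitochondrial malate dehydrogenase, had 91.7, 95 and 97.2 against 97.7, 99.3 and 103 FPKM (log2 fold change 0.08, limma adjusted p = 0.123). ACLY, which cuts exported citrate into acetyl-CoA for lipid synthesis, had −0.05. With median-of-ratios rescaling ACLY, IDH2, OGDH and ALDH9A1, an aldehyde dehydrogenase, passed as lower.

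Genes around the pathways were read from lists of transporters and regulators. These lists are short, and their counts stand beside 18.7% higher and 6.93% lower among all genes tested (11.4% and 12% after median-of-ratios rescaling). At an unadjusted p under 0.05, 2948 of the 10439 genes were higher and 1125 lower. Of 19 genes for glucose entry and lactate export, 7 were tested, and limma found 2 higher (28.6%) and 0 lower, or 5 and 0 at an unadjusted p under 0.05. After median-of-ratios rescaling 1 was higher. SLC2A1, the glucose transporter GLUT1, had 297, 290.2 and 298 FPKM in vector and 338, 347 and 350.2 FPKM in shYB1 libraries, wholly above (log2 fold change 0.22, limma adjusted p = 0.000639). SLC16A1, the lactate carrier MCT1, had a log2 fold change of 0.16 (limma adjusted p = 0.0113) and was lost after median-of-ratios rescaling or quantile normalization. The 13 genes listed as regulators of phosphofructokinase and pyruvate dehydrogenase include PDHX, a complex subunit that is also a member and did not pass. Of the 13, 11 were tested and 1 was higher. This was PFKFB4, which sets fructose 2,6-bisphosphate, at 4.44, 4.19 and 5.30 against 5.77, 5.42 and 5.68 FPKM (log2 fold change 0.28, limma adjusted p = 0.0337), and it was lost when any library other than vector replicate 3 was left out (adjusted p = 0.0578 to 0.106), without the filter, with a prior without trend, and after median-of-ratios rescaling or quantile normalization, which left 0 of the 11.

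Of 9 mitochondrial carriers of pyruvate and cycle acids, 8 were tested and 4 were higher, or 50% beside 18.7% of all genes tested. After median-of-ratios rescaling 3 were higher, where 11.4% of all genes were. The list was chosen with earlier results of these data known, so its share is a description and no test. SLC25A10, the dicarboxylate carrier, had a log2 fold change of 0.29 (limma adjusted p = 0.00969), SLC25A13, an aspartate and glutamate carrier, 0.27 (adjusted p = 0.00347) and MPC2, a subunit of the pyruvate carrier, 0.18 (adjusted p = 0.00923). For SLC25A10, 56.9% of the 50-base words occur in other genes. MPC1, the partner of MPC2, had 2.06, 2.18 and 2.13 FPKM in vector and 2.66, 2.38 and 2.51 FPKM in shYB1 libraries (log2 fold change 0.24, limma adjusted p = 0.0488). The call for MPC1 was lost whichever library was left out (adjusted p = 0.0635 to 0.151). It was also lost without the filter, after median-of-ratios rescaling or quantile normalization, at a common total and with the replicate block.

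Glutamine feeds the cycle through glutamate and oxoglutarate. A list of 14 genes covered glutamine entry, transamination and the malic enzymes ME1, ME2 and ME3. Of these 14 genes 10 were tested, and limma found 4 higher and 0 lower (5 and 0 at an unadjusted p under 0.05). The share higher was 40%, beside 18.7% of all genes tested. This list too was chosen with earlier results of these data known, so the share is no test of it. ME1 and ME2 were tested and did not pass. Median-of-ratios rescaling gave 1 lower and 3 higher genes, where 12% and 11.4% of all genes were lower and higher. GLUD1, glutamate dehydrogenase, had 36.9, 39.1 and 38.9 FPKM in vector and 46.0, 49.3 and 46.8 FPKM in shYB1 libraries, wholly above (log2 fold change 0.31, limma adjusted p = 0.000518). Its words are shared with other genes at 27.5%, most often with GLUD2. GOT1, the cytosolic aspartate transaminase, had a log2 fold change of 0.25 (limma adjusted p = 0.00181) and GPT2, the mitochondrial alanine transaminase, 0.21 (adjusted p = 0.00255). SLC1A5, a glutamine transporter, had 0.15 (limma adjusted p = 0.0177) and was lost after median-of-ratios rescaling, and without vector replicate 2 or shYB1 replicate 1 or 2 (adjusted p = 0.0577 to 0.0647).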

How the data were processed

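RNA of 786-O cells was sequenced in 3 vector and 3 shYB1 libraries, grouped by their labels. The authors deposited FPKM per gene, with KEGG annotation. The submitters' processing notes name Trimmomatic, HISAT2, Cufflinks, HTSeq, DESeq and GRCh38, without versions. Columns named for the control were taken as vector. The table holds no counts, so depth and counting error are not known. Every value column mapped to a library, with 0 unused.

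From the FPKM as deposited, log2(FPKM + 0.1) was taken for 10439 genes averaging 1 FPKM or more. This scale understates the change of low genes. The shYB1 libraries were set against the vector libraries by limma 3.58.1 under R 4.3.3 (lmFit, then eBayes with trend and robust prior). Tests were two-sided, p-values were adjusted after Benjamini-Hochberg across all genes tested, and the threshold was 0.05. The step was tested on simulated data. Tables were made in Python 3.11.15 with pandas 2.3.3 and NumPy 2.4.6, permutations with SciPy 1.17.1, and plots with matplotlib 3.10.9. P-values measure the spread between libraries, which may be technical, since nothing says that they came from separate cultures.

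Named genes are, for each step, the member with the highest mean FPKM, every member at an adjusted p under 0.05, every isoenzyme of 10 families with a mean of at least 1 FPKM, up to 6 members past the threshold per related list, and YBX1. Other genes were named after their values were seen, as were the 4 promoters. Members and lists were chosen with earlier results of these data known. Some genes of the pathways and lists, 1 of them also left out of the members, are not reported here. Coordinates, exon overlap and shared 50-base words come from GENCODE release 29 (GRCh38). Whether fragments were assigned by strand is not given in the sources used here. Alternatives were pseudocounts of 1 and 0.01, no filter, a filter at 5 FPKM, median-of-ratios rescaling, a common total (TPM), quantile normalization, a prior without trend, the replicate block, and each library left out.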

Additional observations from a re-analysis of the deposited data

How the results depend on the processing

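YBX1 kept its direction and passed under all 15 alternatives. With median-of-ratios rescaling, 4 glycolysis genes were higher and the glycolysis median turned to −0.012, and 5 citrate cycle genes were lower and 3 higher with a median of −0.0237. Rescaling to a common total left 2 citrate cycle genes lower. Quantile normalization left 4 citrate cycle genes lower and 3 higher with a median of −0.0278, and under it PKM passed with a log2 fold change of 0.0888, against −0.01 as deposited. A variance prior without trend left 1 glycolysis gene lower and 4 higher. The causes were not tested. With each library left out in turn, glycolysis had 2 to 3 lower and 4 to 9 higher genes and a median of 0.04 to 0.06, and the citrate cycle had 1 lower and 3 to 7 higher genes and a median of 0.02 to 0.05.

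Over 61 further named genes and all alternatives, 911 values were compared. Of these, 797 kept their direction and side of the threshold or stayed short of it, including 36 with the other sign, 101 no longer passed, 12 newly passed and 1 reversed. No pairing by replicate number was seen in the deviations from the group means. Same-numbered libraries correlated at −0.169, −0.059 and −0.00824, and no library correlated best with its own number. With 3 libraries per group this is a description, and a batch shared by number was not tested. With the replicate block the log2 fold change of YBX1 was −1.14. Glycolysis then had 3 lower and 9 higher genes, LDHC included, and the citrate cycle 1 lower and 6 higher genes. Of all 10439 genes tested, 760 were lower and 2074 higher with the block. Depth is not known, which limits what can be said of genes listed at 0.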

Other observations

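Neighbouring sugar pathways were read from short lists, beside 18.7% higher and 6.93% lower among all genes tested. Of 10 glycogen genes, 7 were tested, and limma found 2 higher (28.6%) and 0 lower, or 3 and 0 at an unadjusted p under 0.05. Median-of-ratios rescaling and quantile normalization each gave 1 lower and 1 higher, so the single direction was not kept. PYGB, the brain form of glycogen phosphorylase, had 43.6, 44.9 and 47.1 FPKM in vector and 61.5, 61.6 and 61.0 FPKM in shYB1 libraries, wholly above, with a log2 fold change of 0.44 (limma adjusted p = 3.09e-05). GYG1, glycogenin, had 0.20 (limma adjusted p = 0.0331) and was lost after median-of-ratios rescaling or quantile normalization. It was also lost when any library other than vector replicate 3 was left out (adjusted p = 0.0656 to 0.0934). PGM1, which uses the glucose 1-phosphate that phosphorylase makes, was lower, as described above.

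Of 9 genes of the pentose phosphate branch, 8 were tested, 2 were lower (25%) and 1 was higher (12.5%). TALDO1, transaldolase, had 59.7, 60.4 and 59.3 FPKM in vector and 66.1, 69.6 and 67.5 FPKM in shYB1 libraries (log2 fold change 0.18, limma adjusted p = 0.00353). H6PD, which oxidises glucose 6-phosphate in the endoplasmic reticulum, had 6.70, 6.31 and 6.39 against 5.63, 5.85 and 5.78 FPKM (log2 fold change −0.17, limma adjusted p = 0.0448). This call was lost whichever library was left out (adjusted p = 0.0628 to 0.141). It was also lost without the filter, at a common total and with the replicate block (limma adjusted p = 0.0649).

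Of 4 genes that attach lipoic acid to the 2-oxoacid dehydrogenases, 3 were tested and 1 was higher, where 18.7% of all genes tested were higher and 6.93% lower (11.4% and 12% after median-of-ratios rescaling). LIAS, lipoic acid synthase, had 3.97, 4 and 3.91 FPKM in vector and 4.96, 4.70 and 5.29 FPKM in shYB1 libraries (log2 fold change 0.32, limma adjusted p = 0.00493). TIGAR, a phosphatase that lowers fructose 2,6-bisphosphate, lay under the filter of the main test and passed as higher only in the fit without that filter, the one alternative that included it. It had 0.405, 0.438 and 0.458 FPKM in vector and 0.668, 0.880 and 0.750 FPKM in shYB1 libraries, with no overlap, and 45.2% of its 50-base words occur in other genes.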
